A study of Rattus norvegicus with 5 samples.

Results

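The genes described here are 9 of the protein-coding genes that rat cells carry in their mitochondria: mt-Co1, mt-Co2, mt-Co3, mt-Atp6, mt-Cyb, mt-Nd1, mt-Nd2, mt-Nd4 and mt-Nd5. They were chosen by identifier, as 9 of the 15077 features listed in all 5 tables of the series, and no measured value was used to choose them. The tables pair no identifier with a gene name, so the 9 names rest on the choice itself and could not be checked against the files. Each of the 9 was detected in at least 85.9% of the barcodes of every library.

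The series measured RNA in single cells from the ventricles of wild-type Sprague dawley rat pups at postnatal day 2, cultured as a mixture of myocytes and non-myocytes. All cultures received an adenovirus, so no group is free of virus. One library held cells kept for 3 days with Adeno-GFP, the control virus, and one held cells kept for 3 days with Adeno-TBX18, which carries TBX18, a transcription factor known for its part in forming the pacemaker of the heart. The other 3 libraries were labelled day 14: Adeno-GFP, Adeno-TBX18, and Adeno-TBX18 with 0.2 µM A83-01, an inhibitor of the type I receptors for TGF-β. For the last of these, one label gives 14 days and another gives 3 days for the treatment, so how long the cells were exposed cannot be told from the labels. The labels do not say how many pups were pooled or which promoter drove the inserted genes.

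Mitochondrial DNA encodes a small set of proteins, all of them subunits of the machinery that makes ATP by oxidative phosphorylation. Complex I takes electrons from NADH, complex III passes them on to cytochrome c, complex IV hands them to oxygen, and ATP synthase, complex V, uses the proton gradient that results. The genes are transcribed as long joint transcripts that are cut into separate RNAs, so that differences between their levels also depend on how each RNA is processed and how long it lasts. Heart muscle cells are rich in mitochondria, and fibroblasts and other non-myocytes of the heart hold fewer.

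The tables held 8859, 6781, 6424, 8337 and 7618 barcodes, in the order GFP day 3, TBX18 day 3, GFP day 14, TBX18 day 14 and TBX18 with A83-01. Median depth was 22453 and 28566 molecules (unique molecular identifiers, UMIs) per barcode at day 3 and between 15610 and 17619 at day 14. Pairs of libraries shared between 7 and 20 barcodes, at most 0.280% of the smaller library. The day 14 tables had been limited to barcodes with 1994 to 5592 genes and at most 33982 UMIs, whereas the day 3 tables held barcodes with as few as 28 genes. Day 14 and day 3 therefore differ in the cells listed and in the unit deposited as well as in time, and these cannot be told apart. After removing barcodes under 500 genes and likely doublets, 7664, 6100, 6064, 7904 and 7163 cells were kept.

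Clustering without the 9 genes divided the cells into 2 compartments, which are called by number because no marker of myocytes, stromal cells, endothelial cells or leukocytes could be read from the identifiers. The number 1 was given to the compartment with more cells in which a transcript of the control virus was detected. In the GFP day 3 library 54.1% of its cells had an EGFP transcript, against 7.27% of compartment 2. Compartment 1 held 4527, 3131, 2023, 1271 and 2456 cells in the 5 libraries, or 59.1%, 51.3%, 33.4%, 16.1% and 34.3% of each. The split of myocytes from stromal cells that the comparison calls for could thus not be checked against markers, and other cell types may sit in either compartment.

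Each group is 1 library. There are no replicates, no test between groups was possible, and no p-value is given. The 95% intervals below are exact and cover counting error only: they leave out differences between cultures and the fact that cells of 1 library share their preparation. For the summed share ratios these intervals are about as narrow as the rounding of the values, and they are printed only for single genes where they are wider.

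The 9 genes together made up a much larger share of the RNA in compartment 1 than in compartment 2, in all 5 libraries. In compartment 1 their pooled share of all UMIs was 21.0% (95% exact binomial interval 20.99 to 21.01) with GFP at day 3 and 19.9% with TBX18 at day 3. At day 14 it was 17.3% with GFP, 13.1% with TBX18 and 22.4% with TBX18 and A83-01. The highest share was thus in the A83-01 library and the lowest in the TBX18 library of the same day. In compartment 2 the shares were 3.22%, 3.29%, 3.77%, 2.91% and 4.48% in the same order, so that the A83-01 library was again highest and TBX18 at day 14 again lowest. The pooled shares of all cells were 13.3%, 11.8%, 8.29%, 4.59% and 11.3%.

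Cells varied widely within each library. In compartment 1 the median cell had a share of 20.8% with GFP at day 3, and from the 5th to the 95th percentile cells ran from 8.87% to 35.1%. With TBX18 at day 14 the median was 13.4% and that range was 4.67% to 22.0%, while with A83-01 the median was 22.9% and the range 12.2% to 31.0%. The middle of the A83-01 library thus lay above the 95th percentile of the TBX18 library without it, although the ranges overlapped. A share over 20% was found in 55.6% of compartment 1 cells with GFP and 47.3% with TBX18 at day 3. At day 14 it was found in 32.0% with GFP, 9.05% with TBX18 and 70.6% with A83-01. In compartment 2 the medians were 2.81%, 3.02%, 2.96%, 2.71% and 4.16%.

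**Figure D1:**
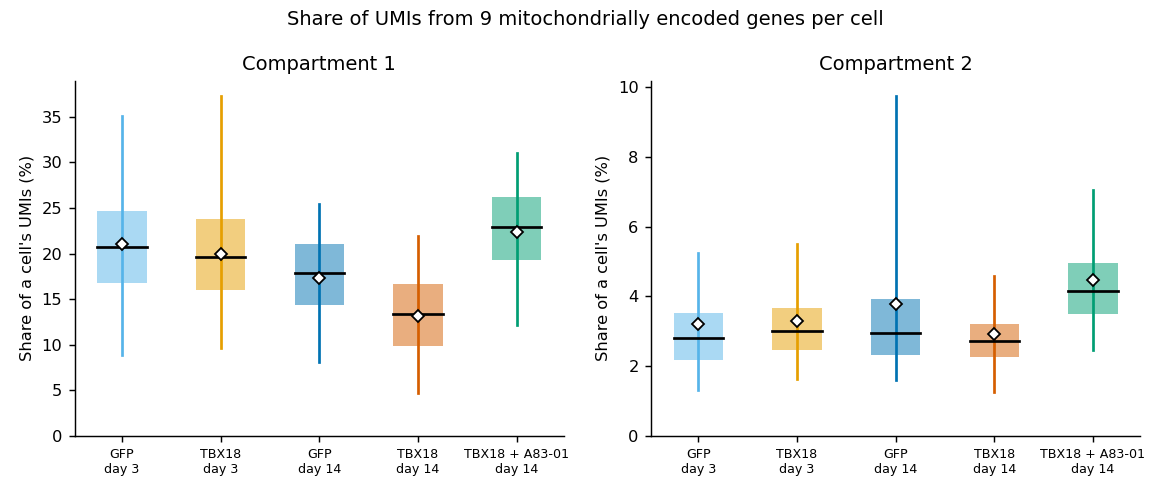
Share of each cell's UMIs that came from the 9 genes, in percent, by library, for compartments 1 and 2, with 1 library per group. The medians of compartment 1 run from 13.4% (TBX18, day 14) to 22.9% (TBX18 with A83-01), and those of compartment 2 from 2.71% to 4.16% in the same 2 libraries.

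A share can move because the 9 genes change or because the rest of the RNA does, so the UMIs of each were set side by side. In compartment 1 the median cell held 2081 UMIs of the 9 genes with TBX18 at day 14, 2656 with GFP and 4341 with A83-01. The UMIs of all other features were 13655, 12261 and 15097 in the same cells. In proportion, the members' UMIs therefore differed more between these libraries than the rest did. In number of UMIs the rest spanned the wider range. With TBX18 the other features gave more UMIs than with GFP, opposite to the members. In compartment 2 the members gave 418, 449 and 686 UMIs per median cell with TBX18, GFP and A83-01 at day 14, against 14847, 14874 and 15661 from other features. UMIs per cell also depend on the depth of each library. In compartment 1 the median cell held 15888 UMIs in all with TBX18, 15126 with GFP and 19488 with A83-01. These counts therefore cannot tell whether the RNA of the 9 genes or the rest differed per cell. Fewer mitochondria in a cell and less RNA per mitochondrion cannot be told apart in these data either.

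Every one of the 9 genes was higher in compartment 1 than in compartment 2 in every library. For their sum the fold was 6.53 with GFP and 6.05 with TBX18 at day 3, and 4.58, 4.50 and 5.00 at day 14 with GFP, TBX18 and A83-01. The smallest difference for a single gene was 2.80-fold, for mt-Co3 with A83-01, and the largest 12.6-fold, for mt-Nd5 with GFP at day 3. Of all genes that averaged 20 or more CPM (UMIs of a gene scaled to a fixed library total), 18.7% were more than 2-fold higher in compartment 1 with GFP at day 3. The cells were clustered on other genes of the same cells, and this difference is a description.

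Complex IV, cytochrome c oxidase, has its catalytic core in the products of mt-Co1, mt-Co2 and mt-Co3. mt-Co1 (ENSRNOG00000034234) stood in compartment 1 at 22241 and 23061 CPM with GFP and TBX18 at day 3, and at 32421, 20113 and 39348 CPM with GFP, TBX18 and A83-01 at day 14. In compartment 2 it stood at 3449, 3264, 7417, 4327 and 6045 CPM in the same order. At day 14 the gene was thus lowest with TBX18 in both compartments, and its highest value was in the A83-01 library in compartment 1 but in the GFP library in compartment 2. mt-Co2 (ENSRNOG00000030371), whose product takes the electrons from cytochrome c, gave 60658, 61780, 45129, 32239 and 62555 CPM in compartment 1 and 8807, 9349, 10072, 7744 and 12268 CPM in compartment 2. The A83-01 library held its highest value and TBX18 day 14 its lowest in both compartments. mt-Co3 (ENSRNOG00000030700), the remaining core subunit, which does not carry a redox centre, gave 25914, 23178, 13335, 13042 and 15433 CPM in compartment 1 and 5577, 6116, 3543, 3460 and 5511 CPM in compartment 2. It separated the days: both day 3 libraries were above all 3 of day 14 in both compartments, by little in the case of A83-01 in compartment 2.

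Complex V contributes mt-Atp6 (ENSRNOG00000031979), the subunit of ATP synthase that forms the proton path. It gave 29026, 29364, 20092, 17628 and 29547 CPM in compartment 1 and 3626, 4047, 4452, 4016 and 5992 CPM in compartment 2. The A83-01 value stood near those of day 3 in compartment 1 and above every other library in compartment 2. mt-Cyb (ENSRNOG00000031766), cytochrome b and the only subunit of complex III that mitochondria encode, gave 27904, 24017, 18508, 14567 and 23913 CPM in compartment 1. In compartment 2 it gave 5973, 5325, 4302, 3333 and 6017 CPM. With TBX18 at day 14 mt-Cyb was at its lowest in both compartments.

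Complex I is represented by 4 subunits of its membrane arm. mt-Nd1 (ENSRNOG00000030644) gave 20764, 16940, 15567, 12234 and 18147 CPM in compartment 1 and 2258, 2337, 3049, 2518 and 3244 CPM in compartment 2. mt-Nd2 (ENSRNOG00000031033) gave 11509, 10410, 13617, 10314 and 18915 CPM in compartment 1 and 1157, 1255, 2447, 1845 and 3190 CPM in compartment 2. mt-Nd4 (ENSRNOG00000029707) gave 11089, 9768, 11546, 9483 and 13872 CPM in compartment 1 and 1248, 1163, 2042, 1665 and 2282 CPM in compartment 2. These 3 genes had their highest compartment 2 value in the A83-01 library, and mt-Nd2 and mt-Nd4 also their highest compartment 1 value. mt-Nd5 (ENSRNOG00000029971) was the least counted of the 9, with 917, 817, 2514, 1538 and 2171 CPM in compartment 1 and 73, 85, 352, 211 and 272 CPM in compartment 2. Every day 14 library was above both day 3 libraries for mt-Nd5, in both compartments. Counts from the 3' ends of RNAs are not scaled to gene length, so levels are compared here for 1 gene across libraries and not between genes.

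**Figure D2:**
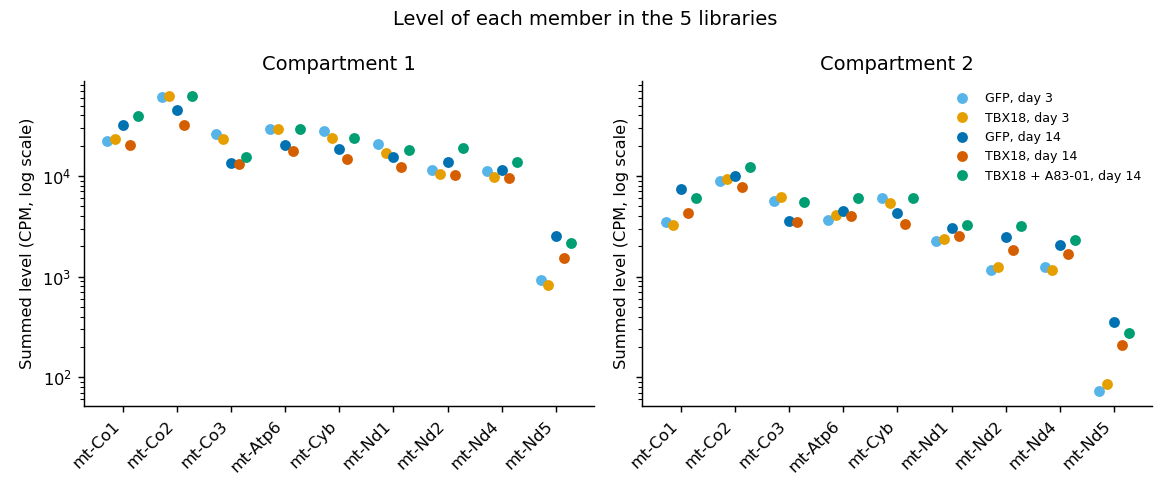
Level of each of the 9 genes in CPM (log axis) in the 5 libraries, for compartments 1 and 2; each point is 1 library. Every day 14 library lies below both day 3 libraries for mt-Co3 and above them for mt-Nd5, and in compartment 1 the TBX18 day 14 library is lowest for every gene except mt-Nd5, for which both day 3 libraries are lower.

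At day 3 TBX18 and GFP differed little. The share of the 9 genes was 0.949-fold in compartment 1 with TBX18 (log2 ratio -0.08) and 1.02-fold in compartment 2 (log2 ratio 0.03). Scaled to the median gene instead of the total, the first of these turned to 0.0036 and the second rose to 0.13, so the direction in compartment 1 rests on the scaling. Single genes ran from -0.29 for mt-Nd1 to 0.05 for mt-Co1 in compartment 1, and from -0.17 for mt-Cyb to 0.22 for mt-Nd5 in compartment 2. None of the 9 was past 1.5-fold in either compartment. Among all genes that averaged 20 CPM or more, 9.97% were higher and 13% lower by over 1.5-fold in compartment 1, and 3.15% and 4.45% in compartment 2.

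At day 14 the 9 genes were lower with TBX18 than with GFP in compartment 1. Their share was 0.759-fold (log2 ratio -0.40), while the median of all 4512 genes was 0.20. Only 4.45% of genes had a lower ratio than the sum of the 9. All 9 were below 0, from -0.71 for mt-Nd5 and -0.69 for mt-Co1 to -0.19 for mt-Atp6 and -0.03 for mt-Co3. The genes of complex IV thus held both one of the largest and the smallest difference. Past 1.5-fold lower were 2 of 9, mt-Co1 and mt-Nd5, beside 2.39% of all genes, and none was higher, beside 10.6%. Scaled to the median gene the ratio of the sum was -0.60, and 4 of the 9 were past 1.5-fold lower, beside 4.74% of all genes, with 5.21% of all genes past it higher.

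The same order held at each depth. Compartment 1 cells were divided into 4 equal parts by UMIs in each library, and the median shares ran from 16.5% to 19.3% with GFP and from 12.2% to 14.0% with TBX18. It also held in a cluster of compartment 1 with many genes per cell that all day 14 libraries contained, where the median share was 11.2% with GFP (282 cells), 8.84% with TBX18 (178 cells) and 17.6% with A83-01 (343 cells). Most compartment 1 cells lay in other clusters, and these differed between the libraries: the largest was a different cluster in each, with median shares of 19.1% with GFP, 13.9% with TBX18 and 23.5% with A83-01. The TBX18 cluster also held 368 GFP cells, whose median was 17.0%, against 13.9% in its 1024 TBX18 cells.

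In compartment 2 the pooled share of the TBX18 library at day 14 was likewise below that of GFP, and the median cells differed less. It was 0.773-fold (log2 ratio -0.37; median of all genes 0.13), with 5.33% of genes lower still. By gene the ratios were -0.78 for mt-Co1, -0.74 for mt-Nd5, -0.41 for mt-Nd2, -0.38 for mt-Co2 and -0.37 for mt-Cyb, and -0.03 to -0.29 for the others. The same 2 genes as in compartment 1 were past 1.5-fold lower, beside 2.29% of all genes, and none was past it higher, beside 6.77%. The median cells, at 2.96% with GFP and 2.71% with TBX18, differed by a log2 ratio of only -0.13. With GFP the 95th percentile of compartment 2 was 9.75%, against 4.59% with TBX18, and 6.68% of its cells had a share over 8%, against 1.75%.

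The 50 genes that most separated compartment 1 from compartment 2, the 9 aside, were counted in the same cells. They made up 0.945% of the UMIs of compartment 2 with GFP at day 14 and 0.767% with TBX18, against 0.457% and 0.506% at day 3, and none of the 50 was at 0 in any library. Within compartment 1 they made up 17.4% with GFP, 14.7% with TBX18 and 19.2% with A83-01 at day 14. In the 270 cells over 8% in the GFP day 14 library their median was 2.44%. When compartment 2 was limited to cells with under 1% from these genes, which kept 72.6% of its cells with GFP and 86.9% with TBX18, the log2 ratio of the share was -0.04. In those cells 5 of the 9 genes were above 0 and 4 below, and none was past 1.5-fold, beside 7.46% of all genes higher and 2.16% lower. mt-Co1 was still the lowest, at -0.55, and mt-Co3 the highest, at 0.25. This limit also tracks the share itself: across compartment 2 cells the Spearman rho of the share with the 50 genes was 0.72 with GFP and 0.42 with TBX18, both over UMIs of the same cells. It therefore removed cells of high share, and more of them with GFP, and what part the compartment 1 transcripts have in the difference was not tested. Among compartment 1 cells with at least 10% from these genes the log2 ratio of the sum was -0.37. The 50 genes and both limits were set after the data had been seen.

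Adding A83-01 to TBX18 went with the largest ratio of the summed share among the 5 comparisons. In compartment 1 the share of the 9 genes was 1.71-fold higher (log2 ratio 0.77), where the median of all genes was -0.38, and 99.1% of genes had a lower ratio. All 9 were higher: mt-Co1 by 0.97, mt-Co2 by 0.96, mt-Nd2 by 0.87, mt-Atp6 by 0.75, mt-Cyb by 0.72, mt-Nd1 by 0.57, mt-Nd4 by 0.55, mt-Nd5 by 0.50 and mt-Co3 by 0.24. The first 5 of these were past 1.5-fold, which only 1.68% of all genes were in that direction; 30.4% of all genes were past it in the other, and none of the 9. Scaled to the median gene the sum stood at 1.16 and all 9 were past 1.5-fold higher, beside 8% of all genes, with 10.5% of all genes past it lower.

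In compartment 2 A83-01 went with a 1.54-fold higher share (log2 ratio 0.62), and 93.1% of genes had a lower ratio. All 9 genes were again higher. mt-Cyb differed most, by 0.85, followed by mt-Nd2 at 0.79, mt-Co3 at 0.67 and mt-Co2 at 0.66, and these 4 were past 1.5-fold, beside 7.66% of all genes. None was past it lower, beside 14.8%. mt-Nd1 and mt-Nd5 differed least, by 0.37 each. In cells with under 1% from the 50 leading genes of compartment 1 the ratio of the sum was 0.56, all 9 genes were above 0 and 4 were past 1.5-fold higher, beside 7.88% of all genes in those cells, with 16% of all genes past it lower. The A83-01 difference in compartment 2 was thus nearly as large in those cells. They made up 67.5% of the compartment with A83-01 and 86.9% with TBX18 alone. This limit also tracks the share here: Spearman rho of the share with the 50 genes was 0.46 with A83-01 and 0.42 with TBX18. Over all of compartment 2 the 50 genes made up 0.977% with A83-01. In compartment 1, among cells with at least 10% from the 50 genes, the ratio of the sum was 0.69 and 5 of the 9 were past 1.5-fold higher, beside 1.48% of all genes, with 29.5% of all genes past it lower.

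The order of the genes was not the same in the compartments. mt-Co3 had the lowest ratio with A83-01 in compartment 1, at 0.24, and one of the higher ones in compartment 2, at 0.67, while mt-Co1 had the highest in compartment 1 and stood at 0.48 in compartment 2. Within the 4 equal parts by depth the median share in compartment 1 was between 22.5% and 23.3% with A83-01, against the 12.2% to 14.0% without it. In compartment 2 it was 3.92% to 4.35%, against 2.58% to 2.81%. Both day 14 comparisons use the same TBX18 library, on opposite sides of the ratio, and so are not independent of each other. Set beside each other without a ratio between them, the GFP and A83-01 libraries had shares of 17.3% and 22.4% in compartment 1 and of 3.77% and 4.48% in compartment 2.

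**Figure D3:**
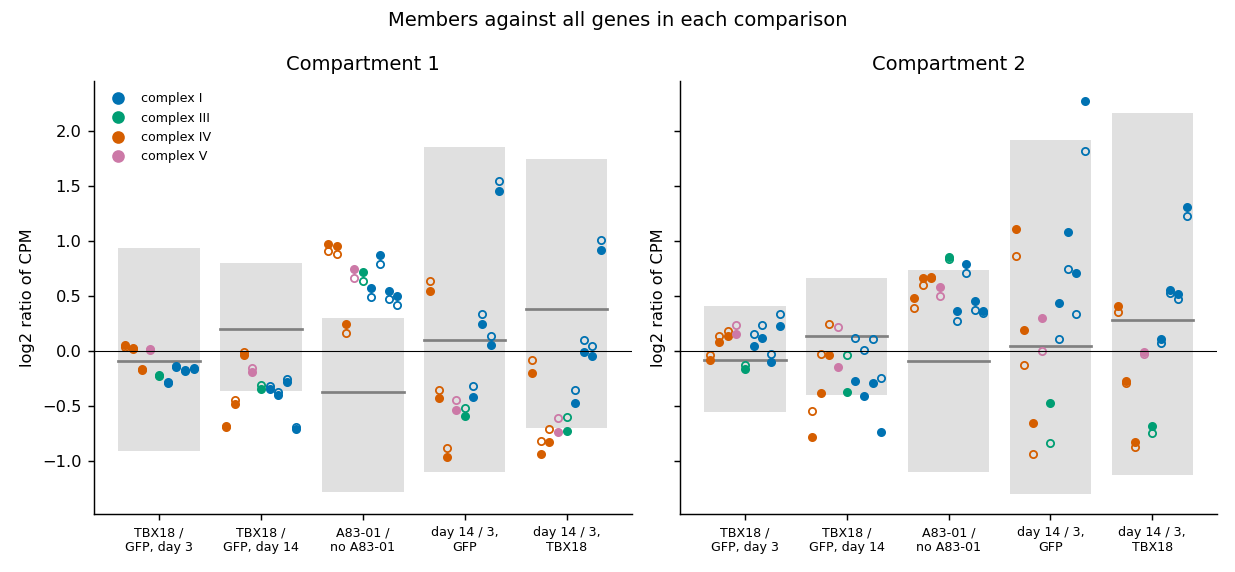
log2 ratio of CPM for each of the 9 genes in each comparison and compartment; filled points are all cells of the compartment and open points the cells chosen by the 50 leading genes of compartment 1, with the grey line at the median and the grey band from the 5th to the 95th percentile of all genes. With A83-01 all 9 filled points lie above 0 in both compartments (0.24 to 0.97 and 0.37 to 0.85), and with TBX18 at day 14 the open points of compartment 2 lie on both sides of 0 (-0.55 to 0.25).

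Between day 3 and day 14 the 9 genes differed in opposite directions. With GFP in compartment 1 mt-Nd5 was 2.74-fold higher at day 14 (log2 ratio 1.45, interval 1.44 to 1.47) and mt-Co1 was 1.46-fold higher, at 0.54, while mt-Co3 was at -0.96, mt-Cyb at -0.59, mt-Atp6 at -0.53, mt-Co2 at -0.43 and mt-Nd1 at -0.42. mt-Nd2 stood at 0.24 and mt-Nd4 at 0.06. The sum was 0.822-fold (log2 ratio -0.28). The share thus hid members that differed in opposite directions, also within complex IV and within complex I. mt-Nd5 was past 1.5-fold higher, beside 23.7% of all genes, and mt-Co3 and mt-Cyb past it lower, beside 16.8%. Scaled to the median gene 3 were past it lower, beside 19.7%, and 1 higher, beside 20.6%.

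In compartment 2 with GFP the sum was 1.17-fold higher at day 14 (log2 ratio 0.23), opposite to compartment 1. mt-Nd5 was 4.83-fold higher (log2 ratio 2.27, interval 2.23 to 2.31), mt-Co1 was 2.15-fold higher, mt-Nd2 2.12-fold and mt-Nd4 1.64-fold. These 4 were past 1.5-fold, beside 30.8% of all genes. mt-Co3, at -0.65, was past it lower, beside 24.2%, and mt-Cyb stood at -0.47. In cells with under 1% from the 50 leading genes the sum turned to -0.09. That limit kept 96.8% of the compartment at day 3 and 72.6% at day 14, and the cause of the turn was not tested.

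With TBX18 the sum was lower at day 14 in both compartments, 0.658-fold in compartment 1 (log2 ratio -0.60) and 0.884-fold in compartment 2 (-0.18). In compartment 1 mt-Co2 was at -0.94, mt-Co3 at -0.83, mt-Atp6 at -0.74 and mt-Cyb at -0.72. These 4 were past 1.5-fold lower, beside 6.74% of all genes, and mt-Nd5, at 0.91, was past it higher, beside 37.3%. Scaled to the median gene mt-Nd5 stood at 0.54, under that limit, and 5 were past it lower, beside 18.4% of all genes, with 19% of all genes past it higher. In compartment 2 mt-Nd5 was at 1.31, past the limit like 39.3% of all genes, and mt-Co3, at -0.82, and mt-Cyb, at -0.68, were past it lower, beside 18.4%. With so many genes past 1.5-fold between the days, counts of members near those shares say nothing particular about them.

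The make-up of the mitochondrial RNA, each gene as a percentage of the UMIs of all 9, does not depend on the rest of the cell's RNA. mt-Co1 took 10.6% and 11.6% in compartment 1 at day 3 with GFP and TBX18, and 18.8%, 15.3% and 17.6% at day 14 with GFP, TBX18 and A83-01. mt-Co3 took 12.3% and 11.6% at day 3 and 7.72%, 9.94% and 6.89% at day 14. For these 2 subunits of 1 enzyme the ratio of mt-Co1 to mt-Co3 UMIs was compared across libraries. In compartment 1 it was 0.858 and 0.995 at day 3, and 2.43, 1.54 and 2.55 at day 14. In compartment 2 the ratio was 0.618 and 0.534 at day 3 and 2.09, 1.25 and 1.10 at day 14. The ratio was thus higher in each day 14 library than in both day 3 libraries, and at day 14 with GFP higher than with TBX18 in both compartments. With A83-01 it was above TBX18 alone in compartment 1 and below it in compartment 2. Because it uses 2 genes of the same cells, it does not change with the scaling of the libraries. It does not remove the other differences between the days, in the cells listed and the unit deposited. The features listed also differed, with 15243 in each day 3 library and 16900 in each day 14 library.

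The other genes also differed in their part. mt-Co2 lay between 24.6% and 31.0% of the members' UMIs in every library and compartment, with 31.0% and 24.6% in compartment 1 with TBX18 at day 3 and day 14. mt-Cyb took 18.6% and 16.2% in compartment 2 at day 3, and 11.4%, 11.5% and 13.4% at day 14. mt-Nd5 took between 0.23% and 0.44% at day 3 and between 0.61% and 1.46% at day 14. The division of the 9 genes differed between the compartments as well: at day 3 mt-Co3 and mt-Cyb took more of the members' UMIs in compartment 2, and mt-Nd1, mt-Nd2 and mt-Nd4 more in compartment 1.

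**Figure D4:**
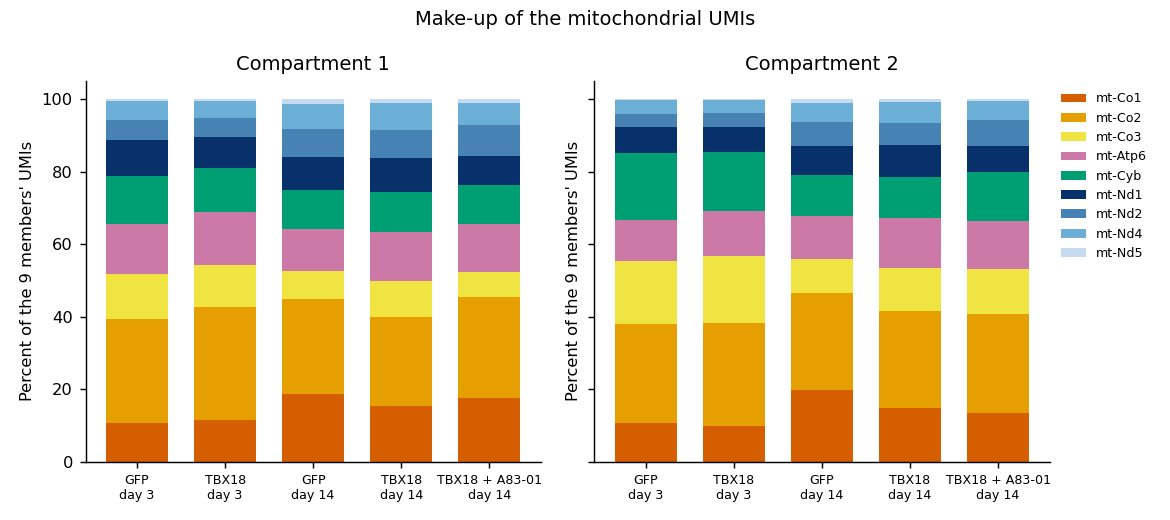
Each of the 9 genes as a percentage of the UMIs of all 9, stacked to 100%, for the 5 libraries and both compartments. In compartment 1 the mt-Co1 part widens from 10.6% and 11.6% at day 3 to between 15.3% and 18.8% at day 14 as the mt-Co3 part narrows from 12.3% and 11.6% to between 6.89% and 9.94%.

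Values of mt-Atp6 and mt-Nd4 need more care than the others. Of their values above 0, 27.0% to 44.2% and 34.0% to 63.1% were not whole numbers, by library, whereas for the other 7 genes at most 2.39% were. Both genes overlap the reading frame of a neighbour in the mitochondrial genome, and reads may have been split between features. Without them the share ratios kept their directions in all 10 values, and that of TBX18 against GFP at day 14 in compartment 1 was -0.44.

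The libraries' whole shares also followed how their UMIs were divided between the compartments. With TBX18 at day 14 the whole-library share was 4.59%. Reweighting its compartments to the UMI proportions of the GFP library gave 6.33%, beside that library's own 8.29%. Reweighting the A83-01 library's 11.3% to the UMI proportions of the TBX18 library gave 7.42%. Differences between whole libraries thus combine the part of the UMIs that each compartment gave with the share inside them. That part depends on the number of cells and on UMIs per cell.

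Within a library the 9 genes were counted together. Spearman rho was taken on each gene's UMIs divided by the UMIs of features other than the 9 in the same cell. Across cells of compartment 1 its median over the 36 pairs of genes was 0.87 with GFP and 0.83 with TBX18 at day 3. At day 14 it was 0.76 with GFP, 0.85 with TBX18 and 0.74 with A83-01. In compartment 2 it ran from 0.68 to 0.80. The genes of a pair share that divisor in each cell, which can itself raise rho, and these figures are a description. In 9 of 10 library and compartment values mt-Nd5, the least counted, had the lowest median rho with the others, and in the remaining one, A83-01 in compartment 1, mt-Co1 did.

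The share was little tied to depth in most libraries, with rho between -0.28 and -0.03 against UMIs per cell. The strongest was TBX18 at day 3 in compartment 1, where the median share went from 23.6% in the quartile of cells with fewest UMIs to 17.6% in that with most. Cells with and without a transcript of the virus lay close together. In compartment 1 at day 3 the median share was 20.8% in cells with an EGFP transcript and 20.6% in those without, and 19.5% against 19.7% for the TBX18 virus. At day 14 the values with and without were 18.6% and 17.3% with GFP, 13.0% and 13.5% with TBX18, and 22.3% and 23.0% with A83-01. With TBX18 at day 14 the low share was therefore found in cells with and without a transcript of the virus, of which there were 198 and 1073. A cell without a detected transcript may still carry the virus.

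Among the barcodes listed, cells with the highest shares were found at day 3, and cells with the lowest shares at both days. A share over 40% was found in 158 compartment 1 cells with GFP and 133 with TBX18 at day 3, and in none at day 14, where the highest share of any barcode was 35.8%. With GFP these 158 cells had a median of 9637.5 UMIs and 1445 genes, against 22912.5 UMIs and 3666 genes in cells between 1% and 40%. With TBX18 the 133 cells had a median of 1467 genes. No day 14 barcode has under 1994 genes, so cells with so few genes could not be listed there. In both day 3 libraries, however, some barcodes with a share over 40% had more than 1994 genes, within the range of genes listed at day 14. That limit therefore does not cover all such cells. Why no share over 40% was listed at day 14 was not tested. One compartment 1 cluster of 93 cells in the GFP day 3 library had a median share of 65.8%. At the other end, 101 and 71 compartment 1 cells of day 3 had under 1%, with a median of only 15 and 11 member UMIs among 3482 and 4567. These low cells formed most of 1 cluster, of 113 and 75 cells, with median shares of 0.52% and 0.21%. What these cells are was not tested. In compartment 2 under 1% was found in 93, 66, 38, 229 and 53 cells in the 5 libraries. These were 2.96%, 2.22%, 0.940%, 3.45% and 1.13% of its cells. The percentage was highest in the TBX18 library of day 14, with GFP at day 3 next.

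**Figure D5:**
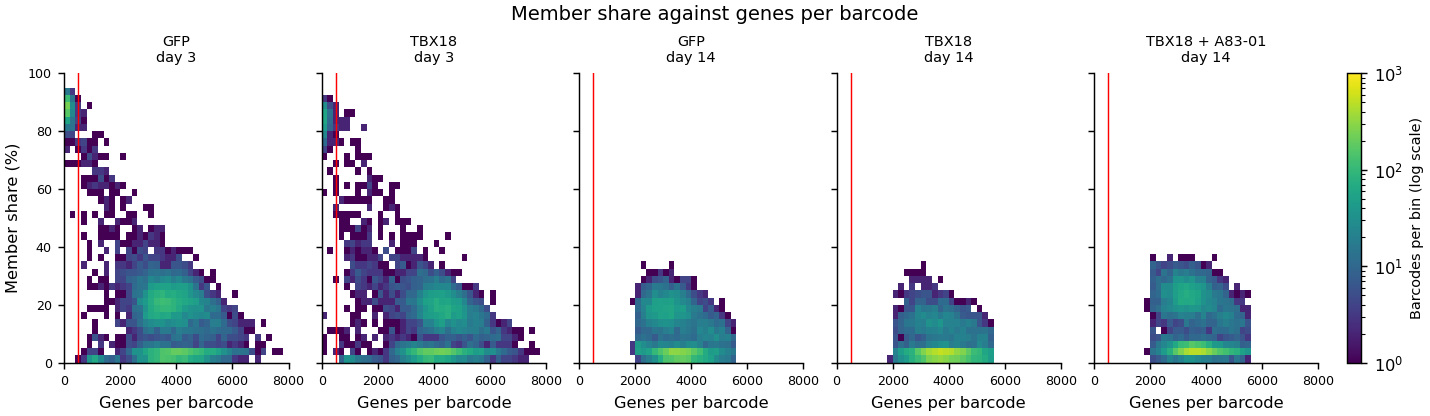
Share of UMIs from the 9 genes in percent against genes detected per barcode, for every barcode of the 5 libraries; colour gives the number of barcodes per bin on a log scale and the red line marks 500 genes. Barcodes under 500 genes appear at day 3, with median shares of 88.0% (731 barcodes, GFP) and 84.0% (292 barcodes, TBX18), and the day 14 tables hold none under 1994 genes and none above 35.8%.

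Of the other features, 4956 averaged 20 CPM or more, and each was compared with the sum of the 9 over 10 values, 1 for each library and compartment. The most alike were ENSRNOG00000017226 and ENSRNOG00000016837, both with Pearson r of 0.994 on log2 CPM, and the most opposite were ENSRNOG00000012623 and ENSRNOG00000008891, at -0.996 and -0.995. Their names were not read from the files. The 10 values come from 5 libraries and fall into 2 groups by compartment, so these figures mainly order genes by how they differ between the compartments. By the same measure the 9 genes themselves ran from 0.890 for mt-Nd5 to 0.998 for mt-Co2.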

How the data were processed

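RNA was measured in single cells of 5 libraries with a droplet kit that reads 3' ends, per the labels' protocols. The submitters' processing notes name STAR 2.7.8a, Partek and the build Rnor_6.0. The authors deposited estimated counts for the day 3 libraries and log2 (CPM + 1) values for the day 14 libraries. Counts were recovered from the latter by taking each cell's most common nonzero value as 1 UMI, and 99.7% of values were then whole within 0.05. Cells under 500 genes and the 6% of barcodes with the highest Scrublet score were left out, because the automatic threshold marked 0% to 3.13%. The others were clustered (scanpy 1.11.5, leidenalg 0.10.2, 2000 variable genes, 30 components, 20 neighbours, resolution 1) without the 9 genes and the virus features, into 25 clusters and then 2 compartments. UMIs were summed by library and compartment. Ratios of the 9 genes and of their sum use CPM without a pseudocount, with exact intervals (scipy 1.17.1). Those of all genes, against which they are set, use CPM with a pseudocount of 0.5, for genes that average 20 CPM or more. The recovery was tested on day 3 cells whose counts were first rounded to whole numbers, so it does not cover values that are not whole. The ratios were tested on simulated data. The planned cell type markers and lists of nuclear genes were not used, because 0 identifiers were found in the gene table, and numbered compartments took the place of named classes. All 9 genes are named, and the identifiers most and least like their sum. Genes, comparisons and lists were chosen with earlier results of these data known.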

Additional observations from a re-analysis of the deposited data

Results flagged for a closer look

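With TBX18 against GFP at day 3 the log2 ratio of the summed share was -0.075 in compartment 1 and 0.034 in compartment 2, opposite in sign. For GFP at day 14 against day 3 it was -0.28 in compartment 1 and 0.23 in compartment 2, again opposite. In compartment 2 the ratio of TBX18 to GFP was 0.034 at day 3 and -0.37 at day 14. With 1 library per group these differences were not tested.

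Barcodes under 500 genes, which no comparison above uses, were found only in the day 3 tables, and the 9 genes made up most of their UMIs: 88.1% pooled over 731 barcodes with GFP and 83.4% over 292 with TBX18, against 13.3% and 11.8% in the kept cells. Their median depth was 6613 and 10122 UMIs. Their make-up within the 9 genes differed from that of the kept cells by gene. With GFP mt-Co2 took 28.4% in them and 28.7% in kept cells, mt-Co1 9.07% and 10.6%, mt-Co3 15.4% and 12.9%, mt-Atp6 16.8% and 13.6%, mt-Nd4 3.60% and 5.13%, and mt-Nd5 0.238% and 0.415%. With TBX18 mt-Nd4 took 3.41% and 4.71%, and mt-Nd5 0.258% and 0.389%. What these barcodes are was not tested.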

How the results depend on the processing

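The log2 ratios of the summed share were recomputed 110 times, over 10 ratios and 11 other ways of processing, and 95 moved by at most 0.1. Against the counting interval of the reported ratio, 33 stayed inside, 75 moved outside and 2 reversed. Between day 14 libraries, the limits taken from the day 14 tables and the minimum of genes change no cell. Those values were fixed in advance and are no check. The TBX18 to GFP ratios of day 3 are themselves under 0.1, so that limit says little about them. The ratios reported, compartment 1 before compartment 2, were -0.075 and 0.034 for TBX18 against GFP at day 3, -0.40 and -0.37 at day 14, 0.77 and 0.62 for A83-01, -0.28 and 0.23 for day 14 against day 3 with GFP, and -0.60 and -0.18 with TBX18; the same order is kept here. Directions reversed in 2 cases: at day 3 in compartment 1 under median-of-ratios scaling (0.0036), and over time with GFP in compartment 2 among cells chosen by leading genes (-0.090). The cause was not tested. Median-of-ratios scaling gave 0.0036 and 0.13, -0.60 and -0.50, 1.16 and 0.74, -0.37 and 0.18, and -0.97 and -0.45, and it lowered the percentage of all genes past 1.5-fold with A83-01 in compartment 1 from 32.1% to 18.5%. Cells chosen by the leading genes gave -0.081 and 0.092, -0.37 and -0.038, 0.69 and 0.56, -0.20 and -0.090, and -0.49 and -0.22. Leaving out mt-Atp6 and mt-Nd4 gave -0.085 and 0.023, -0.44 and -0.41, 0.79 and 0.64, -0.27 and 0.19, and -0.62 and -0.24. Dividing by the UMIs of other features only gave -0.095 at day 3 in compartment 1, -0.47 and -0.38 at day 14, 0.93 and 0.65, -0.35 and 0.24, and -0.72 and -0.18. Ratios of median cells gave -0.084 and 0.10, -0.41 and -0.13, and over time -0.22 and 0.076, and -0.55 and -0.16. Keeping doublets gave -0.12 at day 3 in compartment 1, -0.38 and -0.38, 0.79 and 0.62, -0.35 and 0.22, and -0.61 and -0.19. Limiting day 3 to the genes and UMIs of the day 14 tables gave -0.030 and 0.053 at day 3, 0.24 over time with GFP in compartment 2, and -0.65 and -0.19 with TBX18. With no minimum of genes the compartment 1 ratios were -0.14 at day 3 and, over time, -0.49 with GFP and -0.74 with TBX18. Leaving out cells above the highest day 14 share gave -0.081 at day 3 in compartment 1 and, over time, -0.22 and 0.25, and -0.54 and -0.16. Clustering with the 9 genes gave, in compartment 1, -0.40, 0.78, -0.28 and -0.61 for day 14, A83-01 and the days with GFP and TBX18. Using all genes of each table gave -0.28 and 0.23, and -0.61 and -0.18, over time. The leading genes, the clustering with the 9 genes and the omission of mt-Atp6 and mt-Nd4 were chosen after seeing the data. Assigning cells by sums of markers was not run, since the markers could not be read from the identifiers. No paired analysis was possible because each group has 1 library, and for the same reason no library could be left out. Depth limits little here other than mt-Nd5 in compartment 2 at day 3, at 73 and 85 CPM; the number of cultures limits every comparison.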
